A study of Mus musculus with 30 samples.

Results

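Hearts of mice at postnatal week 8 (8W) were compared with hearts of embryos at day 10.5 of gestation (E10.5), the oldest and the youngest of 10 ages in a study of heart development. The libraries were chosen by their age labels, 3 for each of these ages and 6 of the 30 in all, and 19280 of the 48820 genes in the table had enough counts to be tested. Both groups came from wild-type mice that had received no treatment. No strain or sex is in the labels, but sex-linked transcripts differed between these ages, with counts of the Y-linked genes examined in E10.5 libraries alone. Nothing in the labels tells whether each library stands for 1 animal, a pool or a repeat of the same tissue. The p-values come from a fit of all 30 libraries and rest on the spread among libraries of the same age. That spread may be technical. Gene expression was measured by sequencing RNA purified on oligo-T beads.

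At E10.5 the mouse heart is a looped tube whose chambers are only beginning to divide, its muscle cells still proliferate, and primitive red blood cells made in the yolk sac pass through it. The adult heart is built of muscle cells that have largely left the cell cycle, that take most of their energy from fatty acids burned in mitochondria, and that contract under control of calcium stores and autonomic nerves. These muscle cells lie in a dense net of capillaries, with fibroblasts, vessel wall cells and resident macrophages between them.

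The 8W libraries held 34290380, 43883680 and 41140734 counts, and the E10.5 libraries held 23164934, 29103189 and 31279560. Levels are given as CPM, the usual counts per 1e+06 with library sizes corrected by edgeR's TMM method, and changes as the log2 ratio of 8W over E10.5 ± its standard error. All 12 cardiomyocyte markers had counts in both groups, and their summed level was 49000 to 51200 CPM in 8W libraries and 7990 to 9230 CPM in E10.5 libraries. Of these 12, 11 rose and Nkx2-5 was not called. Nkx2-1, a regulator of lung and thyroid, had no count in any of the 6 libraries, and the 8 foregut and lung markers tested summed to 0.0756 to 0.324 CPM in 8W libraries and 1.22 to 1.68 CPM in E10.5 libraries. The second E10.5 library stood apart. Before scaling, the small nuclear RNA Rn7sk was at 32230 CPM in it, against 6113 CPM in the first and 5667 CPM in the third E10.5 library and 6202, 6486 and 7011 CPM in 8W libraries. Its short transcripts were high and its long ones low, with median log2 differences to the other E10.5 libraries of 0.23 for the shortest of 4 length classes of protein-coding genes and -0.20 for the longest. Values without it are given where leaving it out changed the call of a named gene or moved a list's count by over 1.5 times.

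Most genes differed between the ends of the series. By edgeR's quasi-likelihood test at an adjusted p of 0.05, 15404 genes (79.9%) changed, of which 7294 (37.8% of those tested) rose and 8110 (42.1%) fell in 8W hearts. The change was at least 2-fold for 10919 genes (56.6%), with 4943 higher (25.6%) and 5976 lower (31.0%), and at least 16-fold for 1095 that rose and 1318 that fell. In 15120 genes (78.4%) the 3 libraries of one age lay apart from the 3 of the other, with all 8W libraries above in 37.4% and below in 41.0% of genes tested. Without the second E10.5 library 7321 genes rose (37.2%) and 7978 fell (40.5%). Of the 15404 genes called with all libraries, 14694 were called the same way without it, and 0 the opposite way. Of the protein-coding genes tested 44.7% rose and 37.2% fell, the reverse balance under TMM scaling. Since most genes changed, the share called in a list is read here against these background shares.

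The balance of rises and falls depended on the scaling, and a few transcripts filled far more of the 8W libraries. The 10 most counted genes took 33.7% ± 0.451 of the counts in 8W libraries and 13% ± 2.98 in E10.5 libraries (SD, n = 3 each). TMM lowered the effective size of the 8W libraries with factors of 0.603 to 0.631 and raised that of the E10.5 libraries with factors of 1.155 to 1.337. The median log2 change of all genes was -0.15 under TMM and -1.19 under library size alone, a shift of -1.04, and 3895 genes (20.2%) were then higher and 12625 (65.5%) lower. A change smaller than about 2-fold upward can therefore turn into a fall when the scaling is left out, and list counts under library size alone are given below where they differed by over 1.5 times. Shares within a library and ratios between genes of 1 library do not depend on this choice.

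**Figure D1:**
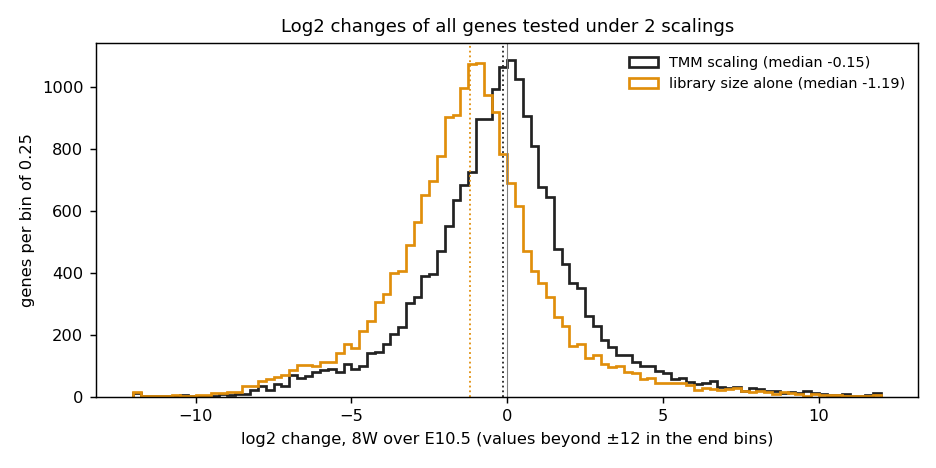
Number of genes per bin of log2 change (8W over E10.5) for the 19280 genes tested, scaled by TMM (black) and by library size alone (orange), with dotted lines at the medians of -0.15 and -1.19. Both curves are broad and have the same form, and the orange one lies to the left by the shift of -1.04.

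Sarcomere and mitochondrially encoded genes took a larger share of the counts in 8W libraries. In bulk hearts more or fewer cells of a type and more or less RNA per cell cannot be told apart. The 22 sarcomere genes of the adult heart made up 15.4%, 15.8% and 16% of the counts in 8W libraries, against 6.08%, 3.14% and 4.97% in E10.5 libraries. The 13 proteins encoded by the mitochondrial genome took 10.2%, 9.83% and 9.76% of the counts in 8W libraries, against 1.99%, 2.25% and 1.84% in E10.5 libraries. This difference of 7.90 percentage points reached p = 0.1 in a 2-sided exact permutation test, the smallest that 3 libraries against 3 allow. With the ribosomal and transfer RNA genes of the mitochondrial genome included, the shares were 19% ± 0.172 in 8W and 5.05% ± 1.26 in E10.5 libraries. Fatty acid genes rose 8.82-fold as a share, with 1.75% ± 0.0863 of the counts in 8W and 0.198% ± 0.00692 in E10.5 libraries. Genes of mitosis were the reverse, with 0.00405% ± 0.000262 of the counts in 8W libraries and 0.354% ± 0.0207 in E10.5 libraries.

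**Figure D2:**
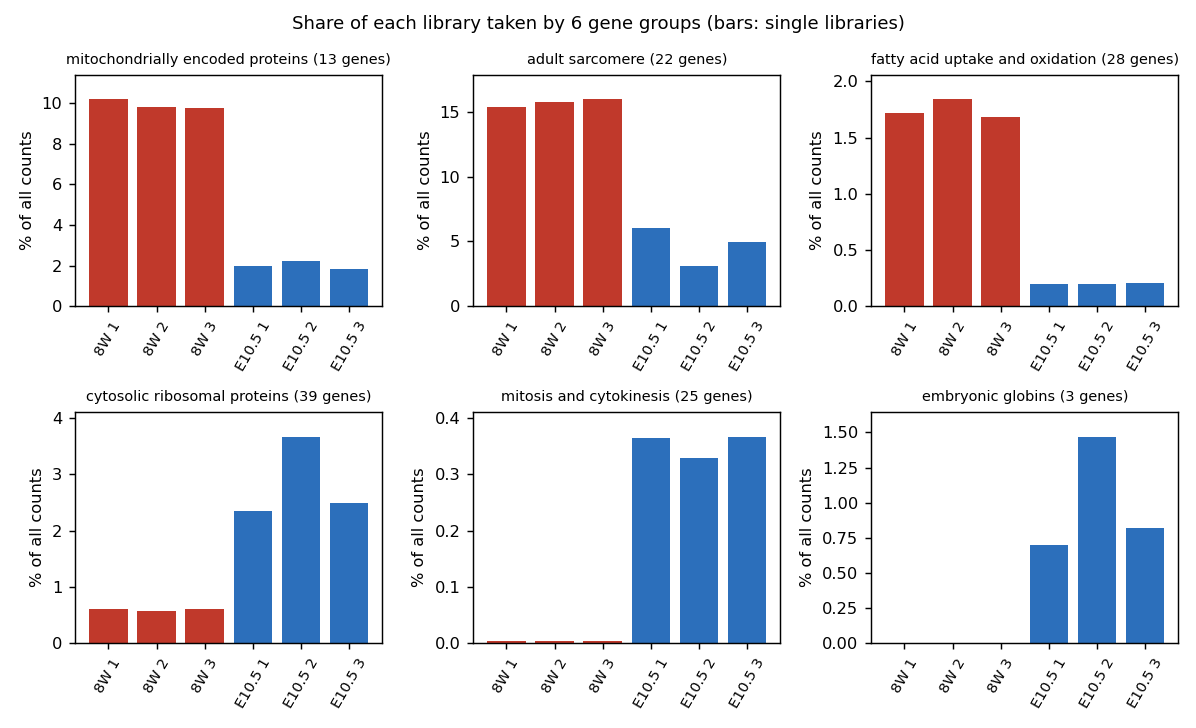
Share of all counts (%) taken by 6 gene groups in each library, with 8W libraries in red and E10.5 libraries in blue and 1 bar per library. The 3 libraries of an age lie apart from those of the other age in all 6 groups, and among the E10.5 libraries the second is lowest for sarcomere genes and highest for ribosomal proteins and embryonic globins.

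Of the 22 adult sarcomere genes, 21 rose and 1 fell, with a median log2 change of 2.81 against -0.15 for all genes. Cardiomyocyte markers, some of them in the same list, rose in 11 of 12 members (median 2.58), and under library size alone 10 rose and 1 fell. Myh6, which encodes the fast alpha myosin that drives adult mouse heart muscle (chr14:54941921-54966927, GRCm38), had 75780, 79110 and 79570 CPM in 8W libraries, against 2605, 1695 and 2475 CPM in E10.5 libraries. All 8W libraries lay above all E10.5 libraries, with a log2 change of 5.11 ± 0.13 (edgeR adjusted p = 1.6e-26). Myom2, an M-band protein of fast-contracting muscle, had 2491, 3215 and 2319 CPM in 8W libraries, against 0.711, 0.476 and 0.584 CPM in E10.5 libraries. Its log2 change of 12.14 ± 0.27 was the largest in the list (edgeR adjusted p = 2.1e-24). Ttn, the giant spring protein titin, had 97940, 112700 and 111000 CPM in 8W libraries, against 31060, 12650 and 21930 CPM in E10.5 libraries. It was already among the most counted genes at E10.5. Its log2 change of 2.29 ± 0.17 (edgeR adjusted p = 4.1e-13) was below the list median of 2.81. Nebl, an actin-binding protein of the Z-disc, was the member that fell, by 0.43 ± 0.11 on the log2 scale (edgeR adjusted p = 0.00056).

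Of the 12 fetal sarcomere and stress genes, 7 fell and 3 rose (median -0.96), and under library size alone 7 fell and 1 rose. Tnni1, the slow skeletal troponin I used by the fetal heart, had 0.740, 1.25 and 1.36 CPM in 8W libraries, against 688.1, 1026 and 777.7 CPM in E10.5 libraries (log2 change -9.52 ± 0.24, edgeR adjusted p = 1.4e-23). Myh7, the slow beta myosin heavy chain, had 175.5, 250.2 and 181.8 CPM in 8W libraries, against 4210, 3670 and 4797 CPM in E10.5 libraries (log2 change -4.38 ± 0.24, edgeR adjusted p = 3.9e-14). These members were thus close to lost or strongly reduced in the adult. The natriuretic peptide gene Nppa did the reverse, with 1686, 1533 and 1934 CPM in 8W libraries and 283.9, 269.4 and 364.0 CPM in E10.5 libraries (log2 change 2.49 ± 0.13, edgeR adjusted p = 3.6e-18). Nppb was 127.3 to 174.5 CPM in 8W libraries and 74.24 to 177.6 CPM in E10.5 libraries, which overlapped, and was not called. Without the second E10.5 library, the highest of the E10.5 values, its log2 change was 1.08 and passed the test.

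A shift from fetal or general toward adult or muscle isoforms was seen in the ratio of paired genes, which scaling cannot alter. Each of the 13 pairs examined lay apart between the ages in all 6 libraries. Each reached the smallest exact permutation p of 0.1 that this design allows. The pairs were picked by hand and not by a rule, so their count does not show how common such changes are. Myh6 made up 99.7% ± 0.0495 of the counts of Myh6 and Myh7 in 8W hearts and 34.6% ± 3.35 in E10.5 hearts. These genes lie side by side and are alike in sequence, so reads could be split between them in counting. Tnni3 made up 100% ± 0.00582 of the counts with Tnni1 in 8W hearts and 23.8% ± 1.92 in E10.5 hearts. Among subunits of cytochrome c oxidase, the heart and muscle forms Cox6a2, Cox7a1 and Cox8b made up 92.7% ± 0.474, 58.6% ± 0.869 and 75.9% ± 2.57 of the counts with their general partners in 8W hearts. The E10.5 shares of the same subunits were 27.4% ± 2.02, 7.77% ± 0.690 and 1.16% ± 0.269. The shares are of counts, and the longer transcript of a pair weighs more in them.

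The myosin share did not move in 1 direction over the 10 ages. Myh6 fell to a share of 21.0% at E16.5, below the 34.6% of E10.5, and reached 44.1% just before birth at E18.5, 73.6% the day after birth (P1) and 98.7% by 1W. The troponin I share climbed at every age, and it was 49.8% at E18.5 and 99.3% by 2W.

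A loose form of the motif of the MEF2 transcription factors of muscle, which bind AT-rich letters, was searched in the promoters of the sarcomere genes. The pattern was CTA, any 4 bases and TAG, which reads the same on both strands. Its 4 middle bases were free, so a match need not be AT-rich. It was present in 4 of 19 adult sarcomere promoters (21.1%) and in 3.12% of the promoters of all tested genes. The promoters of Myoz2, which anchors calcineurin at the Z-disc, and of Mybpc3, cardiac myosin-binding protein C, are shown as 2 of the 4, from RefSeq on GRCm38.p6 and with the motif in capitals. They span 250 bases before to 50 after the start site, on chr3:123034938-123035237 (minus strand) and chr2:91117894-91118193 (plus strand). The match is a description of the letters, and binding was not measured.
Myoz2: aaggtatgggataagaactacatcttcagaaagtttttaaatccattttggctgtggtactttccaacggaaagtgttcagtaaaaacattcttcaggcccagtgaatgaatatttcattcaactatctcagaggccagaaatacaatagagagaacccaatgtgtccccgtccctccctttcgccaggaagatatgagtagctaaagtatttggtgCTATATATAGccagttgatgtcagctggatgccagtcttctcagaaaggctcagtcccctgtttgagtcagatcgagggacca
Mybpc3: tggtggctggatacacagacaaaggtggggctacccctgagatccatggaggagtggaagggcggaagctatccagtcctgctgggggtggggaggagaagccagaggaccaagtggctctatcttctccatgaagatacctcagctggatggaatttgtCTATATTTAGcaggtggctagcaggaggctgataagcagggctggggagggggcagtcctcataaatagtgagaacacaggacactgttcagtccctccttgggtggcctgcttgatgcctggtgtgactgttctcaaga
Myoz2 had 962.6, 1042 and 1001 CPM in 8W libraries, against 19.54, 24.60 and 21.10 CPM in E10.5 libraries (log2 change 5.53 ± 0.10, edgeR adjusted p = 6.5e-30). Mybpc3 had 5323, 5392 and 5300 CPM in 8W libraries, against 716.3, 555.8 and 731.8 CPM in E10.5 libraries (log2 change 3.0 ± 0.12, edgeR adjusted p = 1.1e-21).

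Calcium handling genes, which release and take up the calcium of each beat, rose in 15 of 20 members and fell in 5 (median 2.56), and under library size alone 11 rose and 7 fell. Atp2a2, the calcium pump SERCA2 of the sarcoplasmic reticulum, had 26390, 28080 and 26040 CPM in 8W libraries, against 1381, 923.9 and 1737 CPM in E10.5 libraries (log2 change 4.32 ± 0.14, edgeR adjusted p = 6.7e-24). The inhibitors of this pump rose too, Pln by 4.39 ± 0.11 and Sln by 7.40 ± 0.21 on the log2 scale. The calcium-storing calsequestrins moved apart. The cardiac form Casq2 had 1528 to 1660 CPM in 8W libraries and 12.32 to 17.88 CPM in E10.5 libraries, and the skeletal form Casq1 had 20.72 to 27.52 CPM in 8W libraries and 121.3 to 181.1 CPM in E10.5 libraries. Casq2 thus rose by 6.73 ± 0.13 and Casq1 fell by 2.68 ± 0.22 on the log2 scale. The sodium-calcium exchanger Slc8a1 fell by 0.77 ± 0.10 (edgeR adjusted p = 4.2e-08), with 768.0 to 814.5 CPM in 8W libraries and 1020 to 1642 CPM in E10.5 libraries.

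Ion channel and gap junction genes rose in 24 of 30 members and fell in 4 (median 3.16), and under library size alone 22 rose and 8 fell. The largest rise was in Kcnip2, the partner of the Kv4 channels that carry the fast outward potassium current, with 200.3, 204.7 and 193.6 CPM in 8W libraries and 0.517, 0.149 and 0.316 CPM in E10.5 libraries (log2 change 9.26 ± 0.25, edgeR adjusted p = 7.2e-22). Gja1, connexin 43 of the ventricular gap junctions, rose by 2.29 ± 0.12 on the log2 scale. The pacemaker channels differed among themselves. Hcn2 had 37.37 to 40.57 CPM in 8W libraries and 0.194 to 0.268 CPM in E10.5 libraries, while Hcn4, the channel of the sinus node, had 11.15 to 14.84 CPM in 8W libraries and 12.23 to 15.43 CPM in E10.5 libraries. The libraries of Hcn4 overlapped between the ages, and it was not called. The 4 members that fell included Cacna1d (-2.10), a calcium channel active in nodal cells, and Gja5 (-1.33), connexin 40 of the atria and conduction system.

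Adrenergic and muscarinic signalling genes rose in 20 of 23 members and fell in 2 (median 1.93), and under library size alone 19 rose and 4 fell. Adra1a, the alpha-1A receptor for noradrenaline, had 38.07, 50.31 and 35.77 CPM in 8W libraries and no count in any E10.5 library, which makes it at least 1469-fold higher in 8W hearts, with the E10.5 level set at 3 counts over the group. Adrb1, the main beta receptor of heart muscle, had 12.54 to 15.73 CPM in 8W libraries and 0.506 to 1.22 CPM in E10.5 libraries, a log2 change of 4.00 ± 0.25. Chrm2, the vagal acetylcholine receptor, rose by 5.03 ± 0.11 on the log2 scale.

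**Figure D3:**
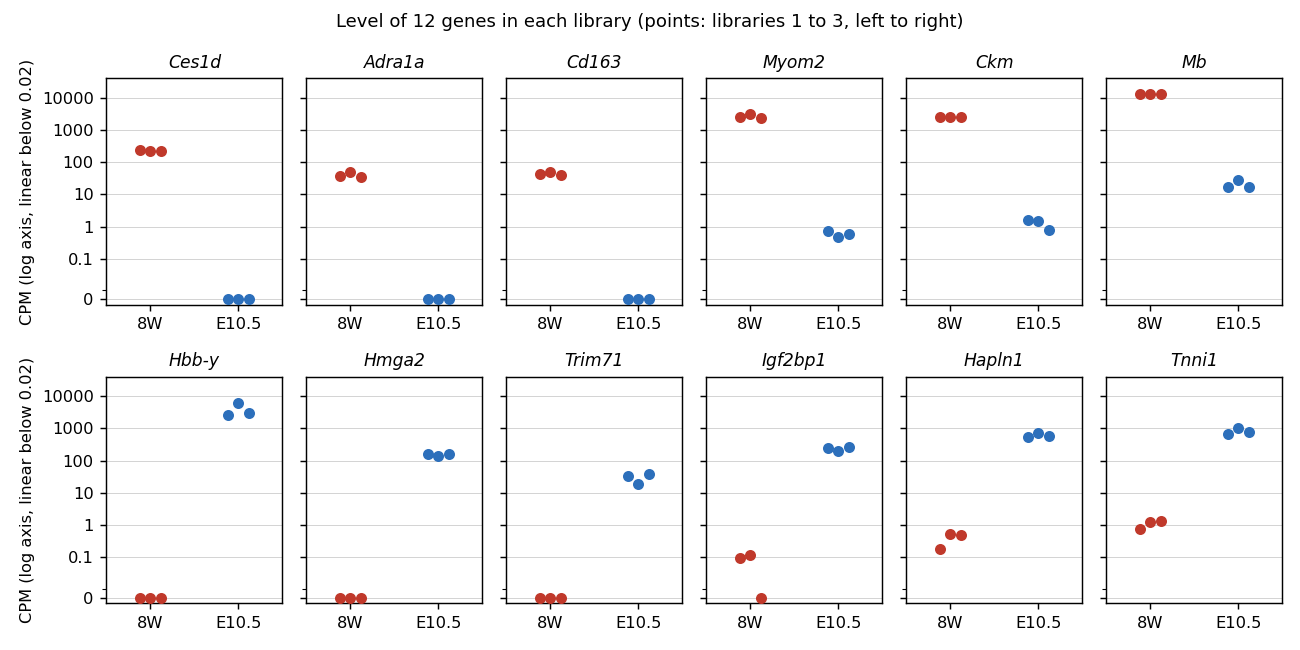
Level (CPM, log axis, linear below 0.02) of 12 genes in each library, with 8W libraries in red on the left and E10.5 libraries in blue on the right of each panel. The groups do not overlap in any panel, and Ces1d, Adra1a and Cd163 have no count at E10.5 while Hbb-y, Hmga2 and Trim71 have none at 8W.

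All 28 genes of fatty acid uptake and oxidation rose at least 2-fold (median 3.67, against 25.6% of all genes past that size). Lpl, the lipase that frees fatty acids from circulating lipoproteins, had 6016, 7362 and 6276 CPM in 8W libraries, against 55.0, 42.57 and 53.77 CPM in E10.5 libraries (log2 change 7.02 ± 0.13, edgeR adjusted p = 3.7e-30). The largest change was in Ucp3, a mitochondrial carrier of the inner membrane, with 39.46, 49.56 and 30.15 CPM in 8W libraries and 0.162, 0 and 0.0730 CPM in E10.5 libraries (log2 change 8.97 ± 0.37). The steps in between rose together. Cd36, which takes up fatty acids, rose by 5.30 ± 0.11, the muscle carnitine transferase Cpt1b by 3.36 ± 0.10 and the dehydrogenase Acadvl by 5.24 ± 0.10 on the log2 scale.

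The 22 genes of the tricarboxylic acid cycle rose without exception (median 2.42), and all were at least 2-fold higher. Ogdh, a subunit of the oxoglutarate dehydrogenase complex, had 5110, 5393 and 5197 CPM in 8W libraries, against 205.6, 196.1 and 249.6 CPM in E10.5 libraries (log2 change 4.59 ± 0.12, edgeR adjusted p = 1.4e-26). Nuclear genes of respiratory complex I rose in 34 of 36 (median 1.55) and those of complexes III to V in 31 of 38 with 2 falls (median 1.41). These 2 falls were of Cox6a1 and Cox8a, general subunits whose muscle partners rose. Without the second E10.5 library these counts were 36 of 36 (median 1.87) and 36 of 38 with 2 falls (median 1.71). Under library size alone 20 of the complex I genes rose and 4 fell, and 22 of the genes of complexes III to V rose and 13 fell.

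Of the 13 proteins encoded by the mitochondrial genome, 12 rose (median 2.57), and all 13 did without the second E10.5 library. The most counted of these, mt-Co1 (chrM:5328-6872), had 123700, 121500 and 120600 CPM in 8W libraries, against 10290, 11730 and 9866 CPM in E10.5 libraries (log2 change 3.52 ± 0.10, edgeR adjusted p = 2.4e-25). The exception with all libraries was mt-Nd3, with 366.2 to 442.6 CPM in 8W libraries and 76.57, 532.4 and 59.56 CPM in E10.5 libraries, where the second E10.5 library lay above all the others. Without that library its log2 change was 2.59. Mitochondrial genes have nuclear copies that can share their reads, so single genes of this group are uncertain.

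Regulators of metabolic genes rose in 15 of 18 members and fell in 2 (median 2.83), and under library size alone 13 rose and 4 fell. Ppara, the nuclear receptor that switches on fatty acid oxidation genes, had 103.4, 118.5 and 86.07 CPM in 8W libraries, against 0.258, 0.684 and 0.584 CPM in E10.5 libraries (log2 change 7.62 ± 0.19, edgeR adjusted p = 3.4e-26). Perm1, a muscle partner of the PGC-1 coactivators, had 567.6 to 597.9 CPM in 8W libraries and 0.714 to 1.20 CPM in E10.5 libraries (log2 change 9.29 ± 0.15). The regulators of mitochondrial genes Nrf1 and Tfam fell, by 0.85 and 0.36 on the log2 scale, while the genes of the respiratory chain rose. The NRF1 site, GCGC followed by any base and TGCGC, searched on both strands, lay in 7 of 32 complex I promoters (21.9%) and in 8.99% of the promoters of all genes tested.

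Of 22 glycolysis genes, 13 rose and 7 fell (median 0.90), and under library size alone 8 rose and 9 fell (median -0.16). The insulin-responsive glucose transporter Slc2a4 had 461.3, 450.6 and 489.4 CPM in 8W libraries, against 7.14, 7.29 and 6.23 CPM in E10.5 libraries. The constitutive transporter Slc2a1 had 17.53, 20.41 and 18.27 CPM in 8W libraries, against 301.6, 241.8 and 340.6 CPM in E10.5 libraries. Slc2a4 made up 96.1% ± 0.408 of the counts of these transporters in 8W hearts and 2.34% ± 0.565 in E10.5 hearts. The same held within the pathway, where the muscle forms Eno3 and Pgam2 made up 88.8% ± 0.318 and 86.0% ± 1.55 of the counts with their partners in 8W hearts, and 13% ± 1.24 and 24.9% ± 2.37 in E10.5 hearts. The lactate exporter Slc16a3 fell by 5.20 ± 0.17 on the log2 scale, with 2.23 to 2.87 CPM in 8W libraries and 82.97 to 105.3 CPM in E10.5 libraries. Ldhb, the heart form of lactate dehydrogenase, made up 67.8% ± 1.81 of the counts with Ldha in 8W hearts and 9.35% ± 0.914 in E10.5 hearts.

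Of 12 genes of ketone and creatine use and oxygen storage, 9 rose and 3 fell (median 3.29). Ckm, the muscle creatine kinase (chr7:19404776-19422841), had 2490, 2491 and 2573 CPM in 8W libraries, against 1.58, 1.46 and 0.803 CPM in E10.5 libraries (log2 change 10.97 ± 0.19, edgeR adjusted p = 1.7e-30). Its mitochondrial partner Ckmt2 rose by 10.14 ± 0.20, and the oxygen store myoglobin, Mb, by 9.29 ± 0.18 on the log2 scale. Genes that make creatine, Gatm and Gamt, fell by 2.33 and 1.74 on the log2 scale. Of 20 genes that break down branched-chain amino acids 19 rose (median 2.17), and Bcat1, the cytosolic first step, fell by 3.34 ± 0.17 on the log2 scale. Of 20 antioxidant enzymes 12 rose and 4 fell (median 0.92), and under library size alone 9 rose and 10 fell (median -0.11).

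**Figure D4:**
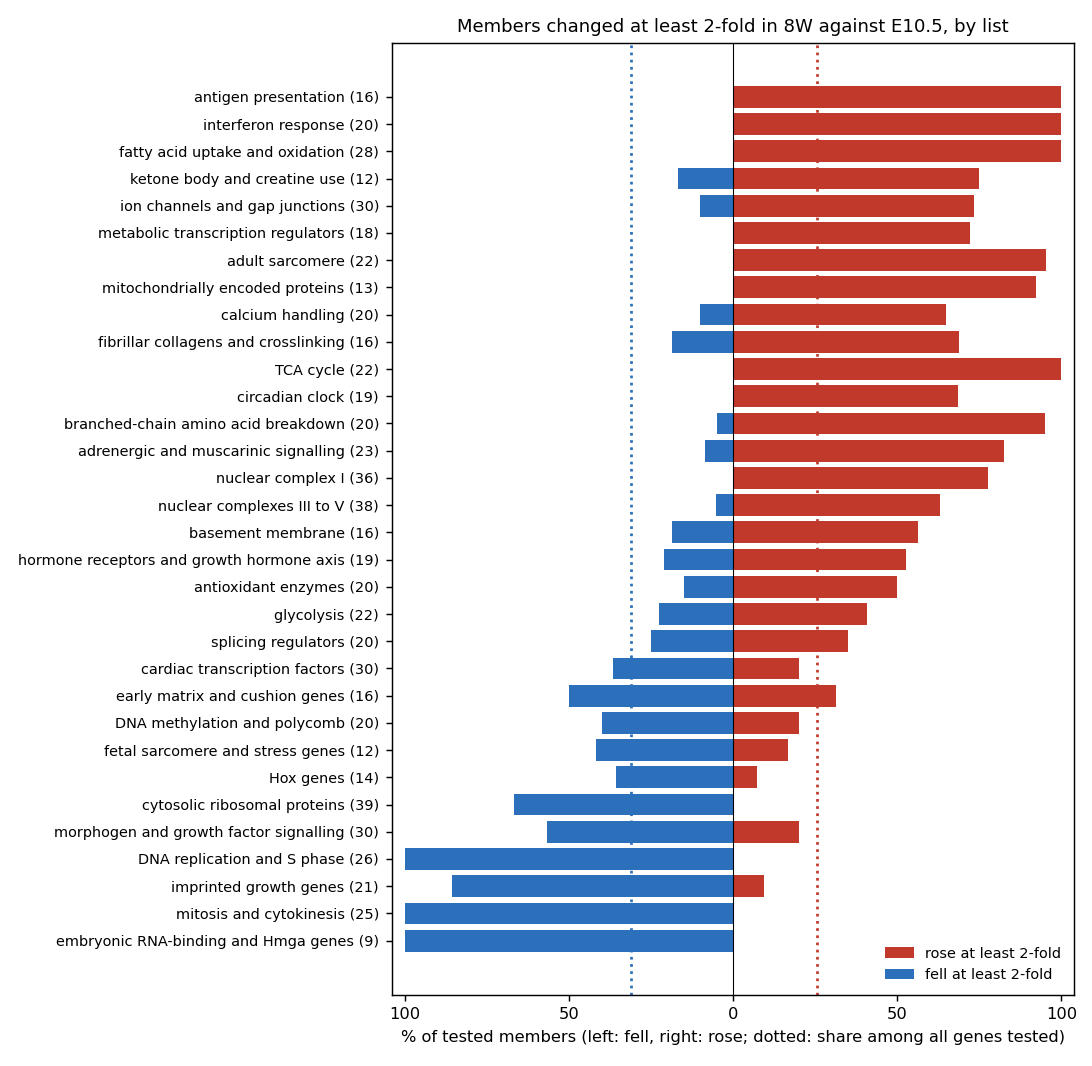
Percentage of tested members of 32 gene lists that rose (right, red) or fell (left, blue) at least 2-fold in 8W against E10.5 hearts, with the number tested in parentheses and dotted lines at the shares for all genes (25.6% and 31.0%). Antigen presentation, interferon, fatty acid and tricarboxylic acid genes reach 100% on the right, and replication, mitosis and embryonic RNA-binding genes reach 100% on the left.

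Cell division genes fell as a whole. All 26 genes of replication and S phase and all 25 of mitosis fell at least 2-fold, with medians of -3.63 and -5.62. Top2a, which untangles DNA before division, had 5.0, 4.27 and 5.50 CPM in 8W libraries, against 521.4, 585.2 and 508.9 CPM in E10.5 libraries (log2 change -6.77 ± 0.42, edgeR adjusted p = 2.0e-12). Ccnb1, the cyclin that starts mitosis, had 0.509, 0.983 and 0.638 CPM in 8W libraries, against 194.7, 212.1 and 206.6 CPM in E10.5 libraries (log2 change -8.14 ± 0.57). The smallest fall in mitosis was that of Cenpf, a kinetochore protein, at -2.19 ± 0.14, with 19.98 to 24.00 CPM in 8W libraries and 93.39 to 108.7 CPM in E10.5 libraries.

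The promoters of these genes were searched for letters known from cell cycle control. CHR, the element TTTGAA bound by the complex that represses or activates mitotic genes, was found on either strand in 16 of 21 mitosis promoters (76.2%) and in 12.4% of all promoters. The CCAAT box was found in 18 of 21 (85.7%) and in 38.0% of all. E2F letters (TTTCCCGC or TTTGGCGC, either strand) were found in 8 of 20 replication promoters (40.0%), in 0 of 21 mitosis promoters and in 2.80% of all. Only these letters were searched. Related forms, such as the TTTCGCGC in the Cdk1 promoter below, were not counted, so the 0 does not show that E2F sites are absent. Since all these letters are known from cell cycle control, their excess in lists of such genes may follow from the choice of the lists. Among all genes that fell at least 2-fold, CHR was found in 15.2%, the CCAAT box in 41.6% and E2F letters in 4.07% of promoters. The promoter of Cdk1, the kinase of mitosis, is shown with its CHR and CCAAT letters in capitals (chr10:69352863-69353162, minus strand). Those of the replication genes Cdc6 (chr11:98907901-98908200, plus strand), which loads the helicase, and Mcm5 (chr8:75109259-75109558, plus strand), a helicase subunit, are shown with E2F letters in capitals. The sequences are from RefSeq on GRCm38.p6, and a CHR and a CCAAT match can share an end base.
Cdk1: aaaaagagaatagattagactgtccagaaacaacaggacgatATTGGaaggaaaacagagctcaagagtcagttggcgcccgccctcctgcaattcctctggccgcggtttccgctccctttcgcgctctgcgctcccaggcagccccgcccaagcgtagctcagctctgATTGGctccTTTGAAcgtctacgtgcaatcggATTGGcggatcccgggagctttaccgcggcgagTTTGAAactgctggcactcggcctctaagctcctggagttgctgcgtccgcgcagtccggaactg
Cdc6: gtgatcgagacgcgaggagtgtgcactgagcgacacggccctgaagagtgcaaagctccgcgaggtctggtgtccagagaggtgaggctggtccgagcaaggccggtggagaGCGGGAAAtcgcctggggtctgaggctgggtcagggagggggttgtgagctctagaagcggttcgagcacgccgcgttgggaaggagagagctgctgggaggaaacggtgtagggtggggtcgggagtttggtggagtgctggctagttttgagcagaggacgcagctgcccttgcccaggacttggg
Mcm5: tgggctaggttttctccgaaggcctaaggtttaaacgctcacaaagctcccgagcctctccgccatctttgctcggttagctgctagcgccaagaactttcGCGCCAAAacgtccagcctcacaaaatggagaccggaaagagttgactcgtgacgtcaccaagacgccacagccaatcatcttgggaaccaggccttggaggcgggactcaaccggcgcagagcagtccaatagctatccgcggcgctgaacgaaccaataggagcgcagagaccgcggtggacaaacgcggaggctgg
Cdk1 had 1.34, 1.21 and 0.917 CPM in 8W libraries, against 108.1, 152.4 and 108.6 CPM in E10.5 libraries (log2 change -6.74 ± 0.46). Cdc6 had 1.02, 0.794 and 0.758 CPM in 8W libraries, against 37.33, 44.66 and 41.21 CPM in E10.5 libraries (log2 change -5.59 ± 0.36). Mcm5 had 6.01, 5.82 and 5.42 CPM in 8W libraries, against 102.6, 127.5 and 106.2 CPM in E10.5 libraries (log2 change -4.28 ± 0.34).

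The course between the ends differed for these lists. Of the replication genes 21 of 26 first passed the midpoint of their change at P1, and of the mitosis genes 19 of 25 at 4W. The mean centred level of both lists was lower at P1 (-0.89 and -0.35) than at 1W (0.21 and 0.42). Cdk1, for example, had a mean of 19.86 CPM at P1, 31.96 CPM at 1W and 2.72 CPM at 4W. Mcm5 had 21.40 CPM at P1, 59.47 CPM at 1W and 6.43 CPM at 4W.

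A group of embryonic RNA-binding and chromatin genes, many of them known targets of let-7 microRNAs, had the lowest median of the 32 pathway lists. All 9 tested members fell, with a median log2 change of -7.74, or -7.32 with genes of no count at their bound. Hmga2, a chromatin protein of growing embryonic tissue (chr10:120361275-120476469), had no count in any 8W library and 162.3, 136.5 and 158.6 CPM in E10.5 libraries, which makes it at least 3722-fold lower in 8W hearts. Trim71 had no count in 8W libraries and 32.97, 19.13 and 39.28 CPM in E10.5 libraries, at least 756.4-fold lower in 8W hearts. Igf2bp1, which binds and stabilizes growth mRNAs, had 0.0925, 0.113 and 0 CPM in 8W libraries, against 252.6, 198.7 and 258.6 CPM in E10.5 libraries (log2 change -11.68 ± 0.22, edgeR adjusted p = 7.8e-30). Lin28a and Lin28b, which block the maturation of let-7, followed, with no count of Lin28a in 8W libraries against 5.44 to 7.21 CPM in E10.5 libraries, and a fall of Lin28b by 6.89 ± 0.36 on the log2 scale. Hmga1 fell least, by 1.65 ± 0.08.

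Mature let-7 was not measured here, since the libraries were made from poly(A) RNA. The members of the family share a seed of bases 2 to 8, shown in capitals for let-7a (chr13:48538239-48538260, minus strand, GRCm38.p6) from RefSeq. Its match CTACCTC was searched in the longest annotated 3′ UTR of each gene on GRCm38. All 9 genes of the list held at least 1 match, against 10.4% of the 15198 genes with a 3′ UTR. Since many of them were already known as let-7 targets, the excess of matches follows from the choice of the list and tests nothing. The median 3′ UTR of the list was 3017 bases long and that of all genes 1168, and the list held 0.76 matches per kilobase against 0.0722. Among genes that rose and genes that fell at least 2-fold the share with a match was 9.92% and 11.4%. The first match of 5 members, in capitals, is shown with the bases around it, since these 5 include the largest falls of the list and the regulators of let-7 itself. They lie on the minus strand of chromosomes 4 (Lin28a), 10 (Lin28b and Hmga2), 9 (Trim71) and 11 (Igf2bp1).
mmu-let-7a-5p: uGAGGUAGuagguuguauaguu
Lin28a: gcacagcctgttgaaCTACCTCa
Lin28b: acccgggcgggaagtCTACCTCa
Hmga2: gccgacattcaatttCTACCTCa
Trim71: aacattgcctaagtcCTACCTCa
Igf2bp1: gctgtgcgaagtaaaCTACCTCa
Lin28b, Hmga2, Trim71 and Igf2bp1 held 4 matches each, and the other 5 genes of the list held 1 or 2. A match is a description of the letters, and repression was not measured.

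Imprinted genes, expressed from 1 parental copy and many of them acting on fetal growth, fell in 19 of 21 members (median -4.10, or -4.03 with genes of no count at their bound). H19, a long non-coding RNA (chr7:142575529-142578143), had 45.52, 42.90 and 55.28 CPM in 8W libraries, against 5731, 5362 and 5911 CPM in E10.5 libraries (log2 change -6.89 ± 0.13, edgeR adjusted p = 6.5e-30). Its neighbour Igf2, the fetal growth factor, had 38.35, 41.54 and 42.63 CPM in 8W libraries, against 1788, 1174 and 1785 CPM in E10.5 libraries (log2 change -5.28 ± 0.12). Mest fell by 8.14 ± 0.19 on the log2 scale. The members that rose were Snrpn (1.27 ± 0.10), a splicing protein, and Gnas (1.34 ± 0.07), the stimulatory G protein of adrenergic signalling.

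Ribosomal protein genes fell, and here the second E10.5 library carried part of the size. Of 39 cytosolic ribosomal proteins 38 fell with a median of -1.47, and without that library 36 fell with a median of -0.93. Under library size alone all 39 fell with a median of -2.50. Rps20 had 43.25, 39.92 and 47.94 CPM in 8W libraries, against 171.9, 417.0 and 166.8 CPM in E10.5 libraries. Its log2 change was -2.53 ± 0.23, and -1.95 without the second E10.5 library. Muscle forms took a larger share of the counts of paired genes here as well, beside the general ones. Rpl3l made up 53.0% ± 1.83 of the counts with Rpl3 in 8W hearts and 0.00746% ± 0.00357 in E10.5 hearts, and the elongation factor Eef1a2 made up 56.9% ± 1.28 of the counts with Eef1a1 in 8W hearts and 0.216% ± 0.0370 in E10.5 hearts. The rise in share came late, since Rpl3l was at 9.56% at 2W and 45.0% at 4W.

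Of 30 transcription factors that specify the heart, 12 rose, 15 fell and 3 were not called (median -0.34). For comparison, 37.8% of all genes tested rose and 42.1% fell, and of protein-coding genes 44.7% rose and 37.2% fell. With library size alone as the scale, 5 of these factors rose and 23 fell. Gata4 had 151.0, 141.9 and 157.2 CPM in 8W libraries, against 139.6, 141.8 and 141.6 CPM in E10.5 libraries, and Nkx2-5 had 48.25, 40.98 and 48.50 CPM in 8W libraries, against 41.63, 54.21 and 41.11 CPM in E10.5 libraries. Their log2 changes of 0.09 ± 0.07 and 0.01 ± 0.10 were not called. Among the factors that fell, Hand1, of the early left ventricle, had 0.0463, 0.0378 and 0 CPM in 8W libraries, against 15.47, 12.85 and 17.50 CPM in E10.5 libraries, 564.2-fold lower in 8W hearts (95% counting interval 155.9 to 4663). Gata5 fell by 5.45 ± 0.16 and Isl1, of the second heart field, by 5.08 ± 0.47 on the log2 scale. Of 30 morphogen and growth factor genes 19 fell and 8 rose (median -1.48, or -1.38 with genes of no count at their bound), and under library size alone 24 fell and 5 rose. Bmp5 fell by 5.05 ± 0.18, and Fgf16 rose by 7.38 ± 0.39, with 8.00 to 9.61 CPM in 8W libraries and 0.162, 0 and 0 CPM in E10.5 libraries. Of 14 Hox genes 5 fell and 1 rose (8 and 1 under library size alone), at a summed level of 2.84 to 3.42 CPM in 8W libraries and 4.31 to 4.65 CPM in E10.5 libraries.

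Of 20 DNA methylation and polycomb genes 13 fell and 5 rose (median -0.63). The histone methyltransferase Ezh2 fell by 3.24 ± 0.10 and its relative Ezh1 rose, so that Ezh1 made up 92.3% ± 1.23 of their counts in 8W hearts and 20.6% ± 1.03 in E10.5 hearts. Of 20 splicing regulators 10 rose and 9 fell (median 0.31). The background was 37.8% and 42.1% of all genes tested, and 44.7% and 37.2% of protein-coding genes. Under library size alone 5 of these regulators rose and 12 fell (median -0.75). Rbfox1, a splicing factor of muscle and neurons, rose by 6.75 ± 0.26, and Rbm20, which splices titin, rose by 2.93 ± 0.11 on the log2 scale.

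Clock genes rose in 18 of 19 members, with none falling under TMM and 12 rising and 4 falling under library size alone (median 2.40). Nr1d1, the repressor REV-ERB alpha, rose by 4.70 ± 0.19 and Arntl, the activator BMAL1, by 2.69 ± 0.13 on the log2 scale. The labels used here do not give the time of day, so levels of these rhythmic genes hold for the hour of sampling. Of 19 hormone genes 13 rose and 6 fell (median 1.26), and under library size alone 9 rose and 7 fell (median 0.21). The thyroid hormone receptor Thrb rose by 6.62 ± 0.30, the mineralocorticoid receptor Nr3c2 by 5.32 ± 0.18 and the growth hormone receptor Ghr by 2.23 ± 0.09, while Igf1 fell by 2.12 ± 0.11 on the log2 scale.

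Of 16 genes of the early matrix 8 fell and 7 rose (median -0.45), and under library size alone 11 fell and 5 rose. Among all genes tested 42.1% fell and 37.8% rose, or 65.5% and 20.2% under library size alone. Hapln1, which links hyaluronan in the cardiac jelly, had 0.185, 0.529 and 0.479 CPM in 8W libraries, against 521.3, 705.2 and 561.5 CPM in E10.5 libraries (log2 change -10.50 ± 0.22, edgeR adjusted p = 1.6e-25). Its partner Vcan, versican, had 86.82, 91.82 and 102.7 CPM in 8W libraries, against 2461, 2739 and 2561 CPM in E10.5 libraries (log2 change -4.79 ± 0.11), and Has2, which makes hyaluronan, fell by 5.81 ± 0.20. Of 16 fibrillar collagen and crosslinking genes 12 rose and 4 fell (median 2.48), and of 16 basement membrane genes 12 rose and 3 fell (median 1.33). Of the basement membrane genes 8 rose and 7 fell under library size alone (median 0.26). Col15a1, a collagen at the edge of basement membranes, rose by 9.2 ± 0.19, and the embryonic laminin Lama1 fell by 7.79 ± 0.52 on the log2 scale. The elastic fibre protein Eln had 79.12 to 103.3 CPM in 8W libraries and 2.48 to 3.59 CPM in E10.5 libraries, and its mean reached 2500 CPM at 1W, far above both ends.

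Markers of fibroblasts rose in 11 of 13 members and fell in 1 (median 4.60), or in 11 and 2 under library size alone, with Gsn at 2995 to 3137 CPM in 8W libraries and 18.28 to 21.35 CPM in E10.5 libraries. Mural cell markers rose in 9 of 11 and fell in 2 (median 2.97). Endothelial markers rose in 12 of 14 and fell in 1 (median 1.14), a count that became 6 rising and 5 falling under library size alone. Within them the general markers Cdh5 and Pecam1 rose by 0.68 and 1.16, of which Cdh5 turned to a fall and Pecam1 missed the threshold under library size alone, while Fabp4 and Aqp1, of capillaries, rose by 9.07 ± 0.23 and 5.69 ± 0.15 on the log2 scale. Lymphatic markers rose in 6 of 7 and fell in 1 (median 1.46), and Ccl21a had 19.84, 21.32 and 21.66 CPM in 8W libraries and no count in E10.5 libraries, at least 739.6-fold higher in 8W hearts. Epicardial markers fell in 9 of 11 and rose in 1 (median -1.86), and endocardial and valve markers fell in 8 of 10 and rose in 2 (median -2.12). Adipocyte markers rose in all 9 tested members (median 7.88, or 6.72 with genes of no count at their bound), and Ucp1 differed widely between 8W libraries, at 3.79, 12.44 and 0.0798 CPM. Fabp4 is in both the adipocyte and the endothelial list, so its rise cannot be assigned to capillaries alone.

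Genes of macrophages, antigen presentation and the interferon response rose, and antigen presentation had the highest median of the 32 pathway lists. All 12 macrophage markers rose (median 5.34), with a summed level of 571 to 601 CPM in 8W libraries and 20.5 to 24.6 CPM in E10.5 libraries. Cd163, a scavenger receptor of resident macrophages, had 44.17, 51.37 and 40.44 CPM in 8W libraries and no count in E10.5 libraries, at least 1602-fold higher in 8W hearts. C1qa, of the complement system, had 63.83, 53.00 and 66.40 CPM in 8W libraries, against 0.194, 0.298 and 0.170 CPM in E10.5 libraries (log2 change 8.11 ± 0.23). All 16 antigen presentation genes rose at least 2-fold (median 5.74), as did all 20 interferon response genes (median 4.05). H2-K1, of class I, rose by 6.32 ± 0.33, and H2-Aa, of class II, had 50.10, 39.69 and 42.43 CPM in 8W libraries and 0.0323, 0 and 0.0243 CPM in E10.5 libraries. The H2 genes are polymorphic and alike, so their reads may be shared among them. Lymphocyte markers summed to 1.94 to 2.61 CPM in 8W libraries and 0.292 to 0.420 CPM in E10.5 libraries, and 4 of the 6 tested rose. Granulocyte and mast cell markers summed to 12.7 to 14.2 CPM in 8W libraries and 17.8 to 24.2 CPM in E10.5 libraries, with 5 of 8 rising and 2 falling.

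Among globin transcripts the embryonic forms were lost and the adult beta form Hbb-bs rose. The blood content of the hearts was not measured, and the cause was not tested. The embryonic globins Hbb-y (chr7:103851749-103853216), Hbb-bh1 and Hba-x had no count in any 8W library. In E10.5 libraries Hbb-y had 2530, 6242 and 3040 CPM, Hbb-bh1 had 1757, 5273 and 2048 CPM and Hba-x had 959.9, 1183 and 1145 CPM. They were at least 95320-fold, 72880-fold and 26890-fold lower in 8W hearts. The adult beta globin Hbb-bs had 1029, 1259 and 1295 CPM in 8W libraries, against 18.50, 37.07 and 12.19 CPM in E10.5 libraries (log2 change 5.73 ± 0.49, edgeR adjusted p = 5.2e-10). Adult alpha globin was present at both ages, with 468.9 to 597.7 CPM of Hba-a1 in 8W and 666.8 to 851.2 CPM in E10.5 libraries, and was not called. The globin regulator Klf1, which red cells express while they still have a nucleus, fell, with 1 count in all 8W libraries and 6.23 to 7.77 CPM in E10.5 libraries. Of the 13 erythroid markers 6 fell and 3 rose (median -0.59), while 42.1% of all genes tested fell and 37.8% rose. Reads of the globin genes may be shared among copies.

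Neural tube markers summed to 0.120 to 0.231 CPM in 8W libraries and 0.974 to 1.49 CPM in E10.5 libraries, with 1 of 4 tested rising and 2 falling. None of the 4 rose without the second E10.5 library or under library size alone. Markers of Schwann cells and neurons summed to 11.2 to 13.4 CPM in 8W libraries and 15.9 to 20.2 CPM in E10.5 libraries, with 6 of 12 rising and 3 falling, and 2 rising and 3 falling under library size alone. In this list the glial regulator Sox10 rose by 1.70 ± 0.39 and the neuronal tubulin Tubb3 fell by 3.48 ± 0.26 on the log2 scale. Liver markers summed to 101 to 110 CPM in 8W libraries and 10.2 to 12.5 CPM in E10.5 libraries. Of 9 tested 3 rose (2 without the second E10.5 library, and 2 under library size alone), led in level by transferrin, Trf, at 89.02 to 95.41 CPM in 8W libraries and 9.44 to 10.88 CPM in E10.5 libraries. Foregut and lung markers summed to 0.0756 to 0.324 CPM in 8W libraries and 1.22 to 1.68 CPM in E10.5 libraries, and of 8 tested 1 fell (2 without the second E10.5 library, and 3 under library size alone). Skeletal muscle markers summed to 2490, 2490 and 2580 CPM in 8W libraries, nearly all of it Ckm, against 29.5, 53.3 and 34.7 CPM in E10.5 libraries. Of 7 skeletal muscle markers Ckm, which heart muscle also uses, rose and 3 fell, among them the fast light chain Mylpf, which fell by 5.74 ± 0.30 on the log2 scale. The small counts of these marker lists are to be read against the 37.8% of all genes tested that rose and the 42.1% that fell.

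Among called genes with a mean at or above 10 CPM in the higher group, the 15 largest rises by fitted log2 change included genes that had no count at E10.5. Ces1d, a carboxylesterase of lipid metabolism (chr8:93166068-93197838), had 237.4, 221.1 and 229.3 CPM in 8W libraries and was at least 8056-fold higher in 8W hearts. Xdh, xanthine dehydrogenase of purine breakdown, had 133.0, 184.2 and 131.9 CPM and was at least 5324-fold higher. Fmo2, a flavin monooxygenase, and Cbr2, a carbonyl reductase, were at least 1324-fold and 732.9-fold higher in 8W hearts. Of these, Mylk4, a muscle kinase, had 203.2, 188.5 and 221.3 CPM in 8W libraries and 2 counts in all at E10.5, 10780-fold higher in 8W hearts (95% counting interval 2984 to 89040). The 15 largest falls included, after the globins, Hmga2 and Trim71, the cartilage collagen Col2a1. This gene had 0.0463, 0 and 0 CPM in 8W libraries, against 87.97, 43.94 and 96.61 CPM in E10.5 libraries.

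The libraries differed in sex-linked transcripts. Transcripts of 4 Y-linked genes summed to 0 CPM before scaling in all 3 8W libraries and to 177, 146 and 31.3 CPM in E10.5 libraries. Xist, the X-linked RNA of female cells, was at 136, 154 and 122 CPM in 8W libraries and 870, 694 and 1600 CPM in E10.5 libraries. Each E10.5 library thus held both male and female transcripts, and the 8W libraries female ones alone. Whether embryos were pooled was not tested. The Y-linked Kdm5d and Uty were among the 15 largest falls, with edgeR adjusted p of 0.049 and 0.047. Both calls were lost when the first or second E10.5 library or any 8W library was left out, with adjusted p of 0.077 to 0.1. For these genes, for Xist and for any gene that differs between the sexes, age and sex cannot be told apart in this comparison. With a sex term in the fit 15124 genes were called, 7188 higher and 7936 lower. Of protein-coding genes, 52.8% fell and 29.8% rose on the X chromosome, and 36.7% fell and 45.2% rose on the autosomes, a difference that was not tested. By kind of gene, protein-coding genes had a median log2 change of 0.13, long intergenic RNAs of -1.27 and antisense RNAs of -1.32, and the share lower in 8W hearts was 37.2%, 50.8% and 52.2%.

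A minority of genes were alike at both ends. The 95% interval of the log2 change lay within -0.5 to 0.5 for 1771 genes. Of the 8 most expressed among them, the nuclear RNA Malat1 had 4064, 5465 and 4387 CPM in 8W libraries, against 5062, 4916 and 4555 CPM in E10.5 libraries (log2 change -0.06 ± 0.13), and the chaperone Hspa5 had 663.9 to 849.7 CPM in 8W libraries and 662.0 to 949.2 CPM in E10.5 libraries (-0.06 ± 0.10). Under library size alone such genes read as lower in 8W hearts by about the shift of -1.04. Of 3876 genes not called between the ends, 2904 (74.9%) were called across the 10 ages, where 18054 genes (93.6%) of all tested were. Agtr2, a receptor of angiotensin II, had 1 count in all in 8W libraries and none in E10.5 libraries, and its mean reached 13.86 CPM at E18.5. Mstn, the muscle growth inhibitor myostatin, had 0.509 to 0.758 CPM in 8W libraries and 0.922 to 1.07 CPM in E10.5 libraries, and its mean was 10.31 CPM at E12.5. Neither gene was called between the ends.

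The other 8 ages show when the change took place. Among genes that rose at least 2-fold, the mean log2 level had passed the midpoint between the ends by E12.5 in 21.2%, by E18.5 in 56.4%, by P1 in 71.2% and by 2W in 92.5%. Among genes that fell at least 2-fold the same shares were 13.2%, 41.1%, 57.8% and 82.7%. Every intermediate mean lay between the ends for 37.7% of the risers and 36.3% of the fallers. The lists differed in their timing. The midpoint was first passed at E12.5 by 10 of 16 collagen genes and 9 of 12 macrophage markers, at P1 by 16 of 28 fatty acid genes, and at 2W by 10 of 13 mitochondrially encoded genes. The collagen genes did not climb steadily. Their mean centred level was -2.87 at E10.5, -0.56 at E12.5, 1.14 at 1W and -0.63 at 8W. No test was made of these differences in timing.

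**Figure D5:**
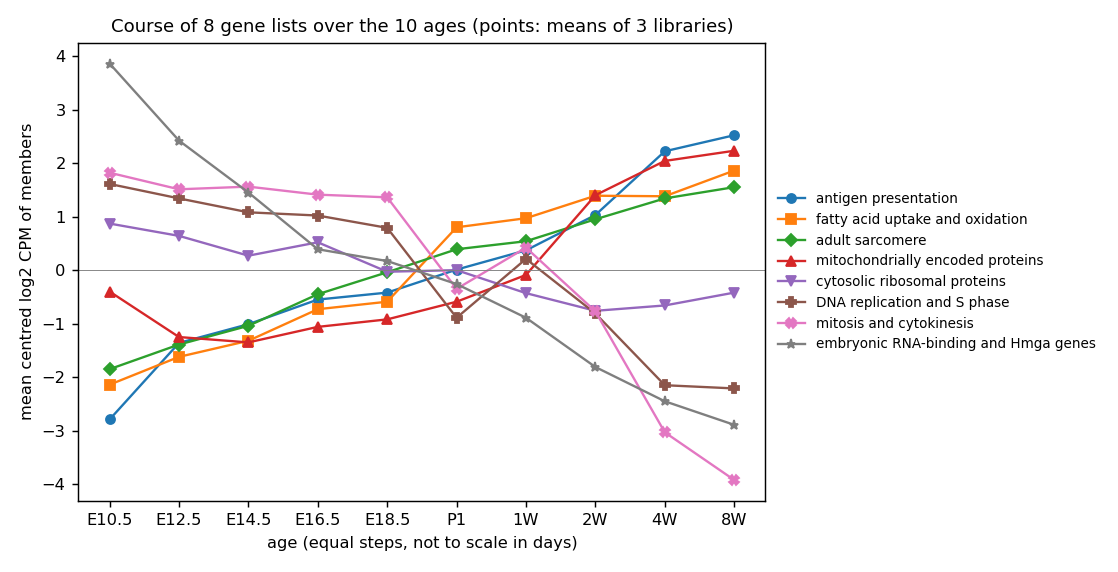
Mean over list members of log2 CPM, centred per gene, at the 10 ages for 8 lists, each point a mean of 3 libraries and the ages set at equal steps. Fatty acid genes step up between E18.5 (-0.59) and P1 (0.80), mitochondrially encoded genes rise after 1W, and replication and mitosis genes drop at P1, recover at 1W and fall to their lowest values at 4W and 8W.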

How the data were processed

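Heart RNA of 10 ages with 3 libraries each was sequenced on an Illumina NovaSeq after bead purification of poly(A) RNA, per the labels' protocols. Reads were trimmed with fastp 0.18.0 and aligned with STAR 2.5.3a to GRCm38 (mm10), per the submitters' processing notes, and which tool, annotation and strand setting were used for counting is not given in the sources used here. The authors deposited 1 table of 48820 genes with expected counts, in which 6.94% of values were not whole (tolerance 1e-06), and these were rounded. Symbols and positions came from GENCODE for GRCm38, which matched 48058 identifiers. The unmatched ones took 0.23% of the counts.

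Genes were filtered with filterByExpr, scaled by TMM and tested with edgeR 4.0.16 (robust quasi-likelihood F test, 20 residual degrees of freedom) in a fit of all 30 libraries, with Benjamini-Hochberg adjustment over 19280 genes and calls at an adjusted p of 0.05. Standard errors were taken from the log2 change and its F value. Where a group had no counts, the fold was computed with 3 counts assigned to that group as a whole and is given as "at least". With 1 to 3 counts the ratio has a 95% exact (Clopper-Pearson) interval, and bounds and intervals cover counting error only. Shares were compared with exact permutation tests. DESeq2 1.42.0, other scalings and filters, other sets of genes or samples, a replicate block, a sex term and leaving out each library were tried as alternatives. Scripts were tested on simulated data. Promoters (250 bases before to 50 after the start) were found for 12627 of the genes tested. R 4.3.3, Python 3.11.15 and scipy 1.17.1 were used.

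The comparison and the 50 gene lists were chosen with earlier results of these data known. Genes were named by a written rule. It takes the 15 largest rises and falls among called genes whose groups did not overlap and whose higher mean was 10 CPM or more, the 6 largest rises and falls in CPM, and the 2 largest rises and falls of each list. It also takes the 8 most expressed genes whose 95% interval lay within 0.5 log2 units of no change, the 6 of largest range over the ages that were not called between the ends, and a panel of heart genes. Other list members were named for their role after their values were seen. Replicates of an age differed by more than counting noise, so none was treated as 1 library deposited more than once. That does not tell separate animals from repeat preparations of the same tissue.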

Additional observations from a re-analysis of the deposited data

How the results depend on the processing

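Scaling had the largest effect on the counts of changed genes. Under library size alone 3895 genes were higher and 12625 lower in 8W hearts, and 2701 and 10111 at a change of at least 2-fold, against 7294 and 8110, and 4943 and 5976, as reported. With upper quartile factors 6272 were higher and 9338 lower. Over the other alternatives, in which from 16239 to 29826 genes were tested, and in protein-coding genes alone, counts of all calls stayed within 1.5 times the reported ones. With the ribosomal and transfer RNA genes of the mitochondrial genome, the difference in its share of counts was 13.9 percentage points.

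Leaving out 1 library at a time gave 15028 to 15299 genes called, 7093 to 7321 higher and 7930 to 8008 lower. At a change of at least 2-fold it gave 10840 to 11022 in all, 4891 to 5040 higher and 5898 to 6002 lower, and across the ages 18178 to 18262. The difference in the mitochondrial share was 7.77 to 8.01 percentage points. The fit of all 30 libraries pools the spread of all ages, while the median SD of log2 CPM was 0.14 in 8W and 0.25 in E10.5 libraries. A fit of only the 6 libraries compared tested 17056 genes and called 13697, with 6708 higher and 6989 lower. In that fit 28 of 36 complex I genes rose, against 34 as reported. A fit of only the 5 libraries without the second E10.5 library, chosen after seeing the data, gave 6995 higher and 7551 lower.

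Replicate numbers did not pair the libraries: same-numbered libraries had correlations of their deviations of -0.006, -0.036 and 0.014. With the replicate block 15431 genes were called, 7333 higher and 8098 lower, 10884 of them at least 2-fold (4952 and 5932), and 18023 across the ages.

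Of single genes, Cdh5 turned to -0.37, Gata4 to -0.96, Nkx2-5 to -1.03, Nppb to -0.48 and mt-Nd3 to -0.08 under library size alone. With upper quartile factors Gata4 turned to -0.19 and Nkx2-5 to -0.27, and with protein-coding genes alone to -0.10 and -0.18. Nkx2-5, reported at 0.01, was also -0.01 under RLE factors, without small RNA genes and in DESeq2, -0.02 with a sex term and -0.06 with the filter of 1 CPM. Without single libraries Nkx2-5 was -0.06 to 0.15, Hspa5 -0.17 to 0.12 and Malat1 -0.20 to 0.01. The cause was not tested. Depth limits genes with few counts, for which bounds replace folds.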
